A study of Mus musculus with 17 samples.

Results

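The 44 genes described here encode the enzymes and carriers that take glucose carbon through glycolysis, the pyruvate dehydrogenase complex and the TCA cycle, together with the shuttles that carry reducing equivalents and carbon across the mitochondrial inner membrane. They were listed by gene symbol and role with earlier results of these data known, and no measured value entered the rule. They were taken from 78239 gene identifiers in the first deposited table and 73212 in the second. All 44 had a row in both tables and all 44 passed the filter on low counts in both. By role they comprise 7 genes of upper glycolysis, 6 of lower glycolysis, 5 of the pyruvate dehydrogenase complex, 2 pyruvate dehydrogenase kinases, 4 genes of pyruvate entry and anaplerosis, 12 of the TCA cycle and 8 of the shuttles and carriers.

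β cells sense glucose by metabolising it. Pyruvate made in glycolysis enters the mitochondria, its oxidation raises the ATP to ADP ratio, and closure of ATP-sensitive potassium channels then triggers insulin release. Adult β cells express little lactate dehydrogenase, so cytosolic NADH from glycolysis is passed to the mitochondria by the malate-aspartate shuttle and by the glycerol-phosphate shuttle, whose mitochondrial enzyme is GPD2. Pyruvate carboxylase (*Pcx*), which replenishes oxaloacetate, is abundant in these cells.

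Total RNA from 17 islet samples of male mice was sequenced to ask how *Pax4*, a transcription factor of β cell development, affects islets under metabolic stress. Each sample is called a mouse below, although nothing states whether a sample pooled several animals. In the first table, wildtype and *Pax4* R192H mice, which are homozygous for the mouse R200H substitution corresponding to human R192H, were littermates on a C57BL6/N background. For each genotype 3 mice aged 12 weeks received a standard chow diet (SCD), and 3 mice aged 16 weeks had received a high-fat diet (HFD) for 4 weeks, so that diet and age changed together. In the second table, all mice carried 2 floxed *Pax4* alleles and were given tamoxifen between 7 and 9 weeks of age and an HFD from 12 weeks of age for 8 weeks, to 20 weeks of age. The 3 *Pax4* βiKO mice also carried *Pdx1-CreERT2*, which is driven by a promoter active in β cells and some other pancreatic cells, and the 2 control mice did not, so that Cre and loss of *Pax4* changed together and cannot be told apart. Values below are CPM, counts scaled to a common library size after TMM normalization of each table on its own, and levels were therefore compared only within a table. A gene passed the test when edgeR's quasi-likelihood F-test gave a Benjamini-Hochberg adjusted p below 0.05 over all genes of the table and the log2 fold change exceeded 0.5 in size.

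Libraries held 24268150 to 42679673 counts in the first table and 28618787 to 31887499 in the second. HFD-fed *Pax4* R192H libraries stood apart, with TMM factors of 0.692 to 0.823 against 0.89 to 1.11 in HFD-fed wildtype and at least 1.08 in SCD-fed *Pax4* R192H. The 2 largest genes of the first table held 49.2 to 53.3% of counts in HFD-fed *Pax4* R192H and 36.2 to 49.8% in the other groups of that table, and held 5.40 to 6.49% in the second table. The 44 genes held 0.183 to 0.254% of counts in HFD-fed *Pax4* R192H and 0.253 to 0.27% in HFD-fed wildtype libraries, before TMM. *Pax4* was at 0 counts in all 17 libraries, which allows up to 3 counts, or 0.0703 to 0.124 CPM without TMM, in a library by counting error alone, so the deletion could not be checked. β cell markers, including both insulin genes, were abundant in every library. The summed level of 28 acinar markers ranged from 44045 to 116116 CPM in *Pax4* R192H and from 19077 to 29748 CPM in wildtype islets on HFD, without overlap, and replicate 1 of HFD-fed *Pax4* R192H was the highest. No acinar marker was at 0 in all mice of a group, *Cpa1* (carboxypeptidase A1) ranged from 978 to 6044 CPM over the 6 mice, and 8 of the 28 acinar markers were called higher in *Pax4* R192H. Of 12 β cell markers, 8 had a log2 fold change below 0, with a median of -0.61, and 4 (*Trpm5*, *Slc30a8*, *Glp1r* and *Slc2a2*) were called lower and none higher. Their sum was nevertheless higher, at 99601 to 110780 against 66084 to 94377 CPM, and most of it was *Ins1* and *Ins2*, at 30151 to 34379 and 38625 to 46040 CPM in *Pax4* R192H and 24651 to 33547 and 25303 to 39122 CPM in wildtype islets on HFD. All 8 cell cycle genes had a log2 fold change above 0, with a median of 1.63 and sums of 171 to 204 against 42.9 to 94.3 CPM, and *Mcm2*, *Mcm5* and *Pcna* were called higher. Of 8 α cell markers 4 were above 0 and 4 below, and *Gc* and *Ttr* were called higher at 1.52 and 1.16. These calls are those of edgeR, which called 17 of 98 markers over all lists, and DESeq2, a second tool, called 43. Over all genes edgeR called 1.46% higher and 0.82% lower, and DESeq2 3.5% and 1.75%. DESeq2 added acinar and cell cycle genes, *Mafa*, *Nkx6-1* and *Ucn3* of the β cell list, *Slc7a2* of the α cell list and *Spp1* of the duct list. In the second table acinar sums overlapped, at 28302 and 124626 CPM in control and 19780 to 98398 CPM in *Pax4* βiKO islets. All 28 acinar markers had a log2 fold change below 0 there, with a median of -0.68, none of them called. All 8 cell cycle genes were above 0, with a median of 0.55 and sums of 109 and 124 against 110.2 to 199 CPM, none called, and 9 of 12 β cell markers were below 0, with *Trpm5* called lower. DESeq2 also called *Mafa* and *Slc2a2* of the β cell list there, *Gc* and *Ttr* of the α cell list and *Spp1* of the duct list. The part of these differences in the results below was tested only through the acinar covariate and the omissions of single mice given there. Fewer cells of a type and less RNA per cell cannot be told apart in bulk RNA.

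Promoter sequences are shown for *Gpd2*, the only gene of the 44 that passed the test between genotypes, at both of its RefSeq starts, and for *Mdh1* and *Pgk1*, whose values were higher in the same mice. Each covers 250 bases before and 50 bases after a start, read 5′ to 3′ on the gene's strand, from RefSeq on GRCm38.p6. Capitals mark TAAT, the core letters that homeodomain proteins such as PAX4 commonly bind, and ACGTG, the core letters shared by hypoxia response elements and many E-boxes, each on either strand.
Gpd2 upstream start, chr2:57237428-57237727 (+): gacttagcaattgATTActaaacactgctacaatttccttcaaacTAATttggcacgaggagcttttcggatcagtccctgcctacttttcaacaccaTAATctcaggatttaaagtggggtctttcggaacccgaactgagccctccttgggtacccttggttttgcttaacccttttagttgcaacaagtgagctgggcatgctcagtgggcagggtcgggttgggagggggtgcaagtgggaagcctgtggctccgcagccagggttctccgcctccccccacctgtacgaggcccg
Gpd2 downstream start, chr2:57238132-57238431 (+): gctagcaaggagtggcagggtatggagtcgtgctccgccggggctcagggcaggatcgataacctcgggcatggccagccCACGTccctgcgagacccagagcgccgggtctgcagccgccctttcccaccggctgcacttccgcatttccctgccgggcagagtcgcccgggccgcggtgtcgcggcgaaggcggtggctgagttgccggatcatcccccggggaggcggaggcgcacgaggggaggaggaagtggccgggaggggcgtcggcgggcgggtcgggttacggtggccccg
Mdh1, chr11:21571885-21572184 (-): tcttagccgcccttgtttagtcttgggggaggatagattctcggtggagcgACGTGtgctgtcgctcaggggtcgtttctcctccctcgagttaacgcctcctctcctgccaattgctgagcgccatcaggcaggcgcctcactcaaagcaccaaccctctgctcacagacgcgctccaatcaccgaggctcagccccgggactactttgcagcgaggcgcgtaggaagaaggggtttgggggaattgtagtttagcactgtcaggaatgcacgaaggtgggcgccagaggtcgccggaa
Pgk1, chrX:106186850-106187149 (+): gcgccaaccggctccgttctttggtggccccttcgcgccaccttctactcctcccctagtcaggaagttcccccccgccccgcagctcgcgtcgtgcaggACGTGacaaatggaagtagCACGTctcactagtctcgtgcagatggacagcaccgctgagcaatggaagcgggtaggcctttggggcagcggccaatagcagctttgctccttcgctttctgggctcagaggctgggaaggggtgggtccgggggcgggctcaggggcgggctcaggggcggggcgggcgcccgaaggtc
The upstream *Gpd2* start held 3 matches to TAAT and no ACGTG, whereas the downstream start held no TAAT and 1 ACGTG. *Mdh1* had 1 ACGTG and *Pgk1* had 2, and neither had TAAT in this window. *Pcx*, which was lower in the same mice, held ACGTG and no TAAT at one start, and 1 TAAT and no ACGTG at the other. Of 32851 promoters of this length in the table, 58.0% held TAAT and 19.6% held ACGTG on either strand. Promoters were found for 43 of the 44 genes, not for *Idh3a*, and of their 62 starts 25 (40.3%) held TAAT and 23 (37.1%) held ACGTG. These starts were also richer in G and C, with a median of 60.7% against 52.7% over all promoters. No binding was measured, and a match is only a run of letters.

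Per kilobase of exon, *Pkm* (pyruvate kinase, the last step of glycolysis), *Mdh1* (cytosolic malate dehydrogenase) and *Aldoa* (aldolase A) had the 3 highest levels of the 44 genes in every group. In SCD-fed wildtype islets they stood at 84.2 ± 19.7, 70.9 ± 15.2 and 66.8 ± 9.90 CPM per kilobase (SD, n = 3). These SDs are between mice, the 3 genes were measured in the same mice, and their order was not tested. The lowest was *Pdk2*, a kinase that inactivates pyruvate dehydrogenase, at 0.542 ± 0.195 CPM per kilobase. In HFD-fed *Pax4* R192H islets *Mdh1* was at 136 ± 19.9 CPM per kilobase. *Gpd2* was at 4.08 ± 1.12 CPM per kilobase there, rank 36 of 44, and at 9.56 ± 1.48 in HFD-fed wildtype islets, rank 21. These levels use the union of a gene's exons, and with the length of its longest transcript the ranks of *Gpd2* were 39 and 29. The highest 3 genes were the same with both lengths in every group, but their order changed in each group except HFD-fed wildtype.

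To examine the effect of the variant under metabolic stress, HFD-fed *Pax4* R192H islets were compared with HFD-fed wildtype islets. Among the 44 genes, 1 was called lower and none was called higher, where 0.82% of all 19137 genes tested were called lower and 1.46% higher. DESeq2 called 5 of the 44, namely *Gpd2*, *Pcx* and *Aldoc* lower and *Mdh1* and *Pgk1* higher, where it called 1.75% of all genes lower and 3.5% higher. The gene that fell was *Gpd2*, the mitochondrial glycerol-3-phosphate dehydrogenase. *Gpd2* measured 55.1, 59.1 and 73.5 CPM in the 3 wildtype mice and 21.3, 35.0 and 23.8 CPM in the 3 *Pax4* R192H mice. The groups did not overlap, and the *Pax4* R192H mean was 42.7% of the wildtype mean. The log2 fold change was -1.23 ± 0.19 (SE), with an edgeR adjusted p of 0.00686.

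On SCD, *Gpd2* was 54.5, 50.6 and 68.6 CPM in wildtype and 54.6, 70.8 and 66.9 CPM in *Pax4* R192H islets. These values overlapped with each other and with those of HFD-fed wildtype mice, so the 3 HFD-fed *Pax4* R192H mice were the lowest 3 of the 12. The difference between the genotype effects on HFD and SCD was -1.38 ± 0.27 on the log2 scale and did not pass the test in the edgeR fit (adjusted p = 0.0631). It passed with DESeq2 (adjusted p = 0.000465) and with a filter of 10 counts in every sample (edgeR adjusted p = 0.0388). Without replicate 1 of HFD-fed *Pax4* R192H, the library with the highest acinar sum, *Gpd2* was still called lower on HFD at -1.09 on the log2 scale (edgeR adjusted p = 0.0404). With the mean log2 CPM of the acinar markers as a covariate the log2 fold change was -1.08 ± 0.30. No gene of the table was called then, *Gpd2* included (edgeR adjusted p = 0.442). The part of acinar RNA in the *Gpd2* result beyond these values was not tested. *Gpd1*, the cytosolic partner of the glycerol-phosphate shuttle, was at 12.5 to 15.2 CPM in wildtype and 12.3 to 20.7 CPM in *Pax4* R192H islets on HFD, at 0.19 ± 0.21 on the log2 scale (edgeR adjusted p = 0.734).

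**Figure D1:**
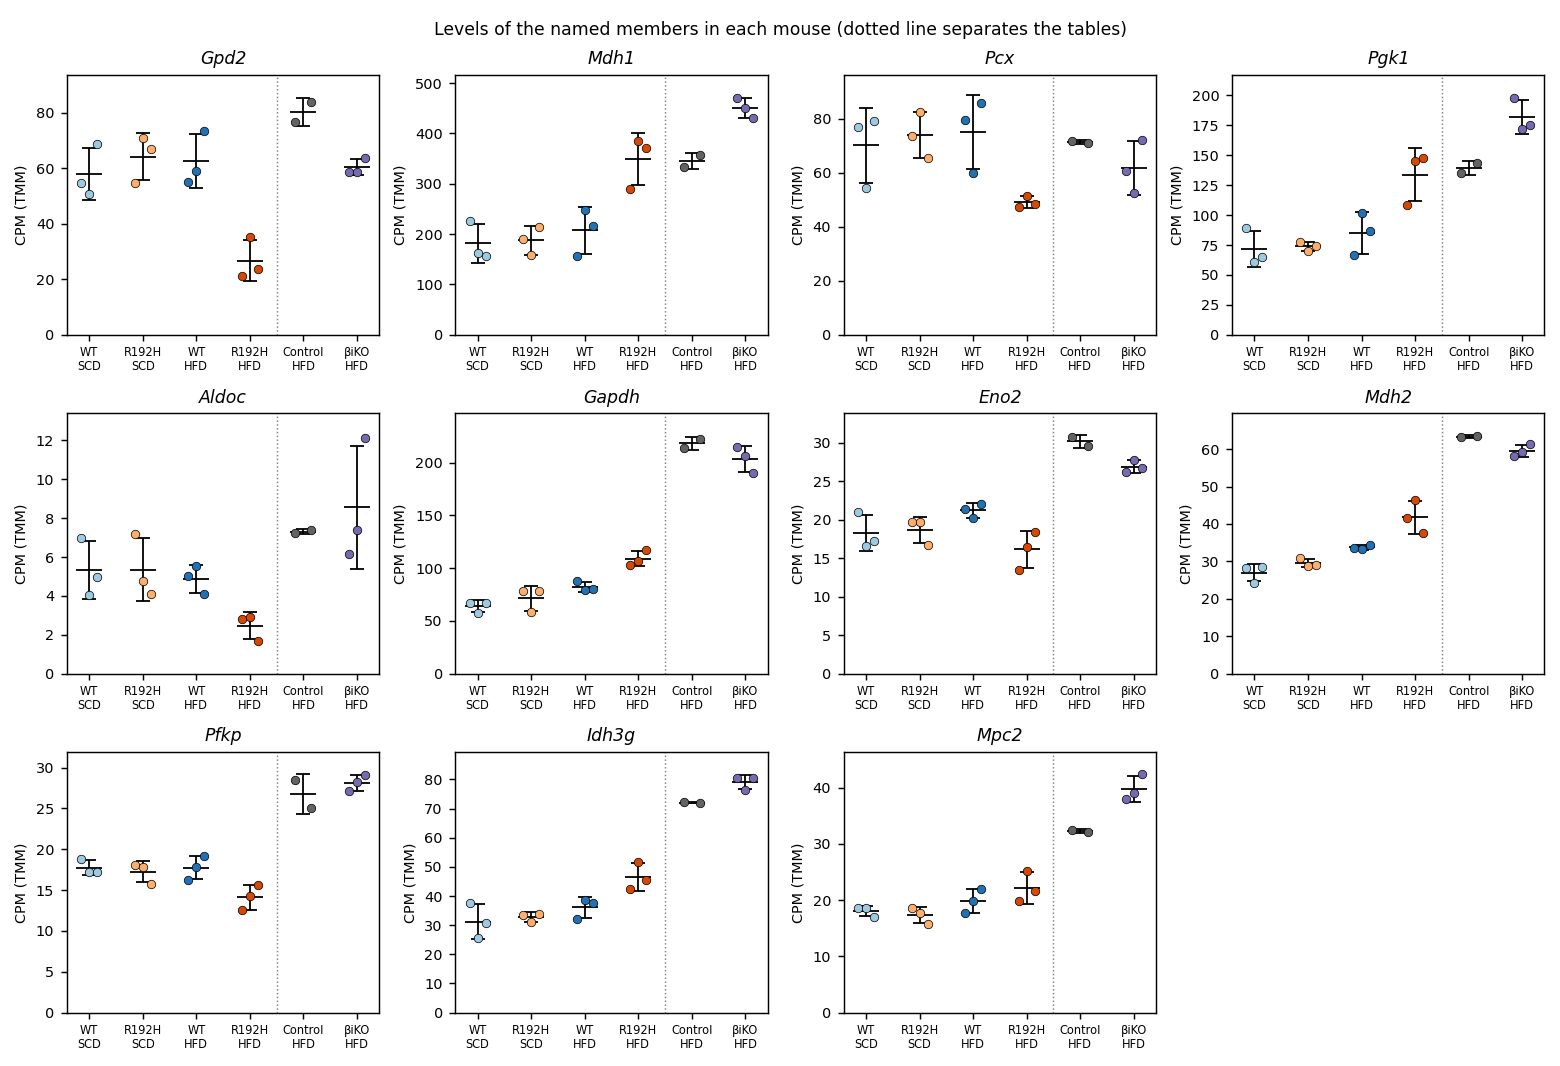
CPM of 11 genes in each mouse (points), with the group mean and SD (bars), and separate scales for each gene. *Gpd2* lies between 50.6 and 73.5 CPM in 9 mice of the first table and between 21.3 and 35.0 CPM in the 3 on HFD with *Pax4* R192H. The dotted line divides the tables, across which levels are not comparable.

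The cytosolic genes of the malate-aspartate shuttle had log2 fold changes above 0 that did not pass the edgeR test. *Mdh1*, which reduces oxaloacetate with cytosolic NADH, was at 157, 249 and 217 CPM in HFD-fed wildtype islets and at 290.5, 385 and 372 CPM in HFD-fed *Pax4* R192H islets. All 3 *Pax4* R192H mice were above all 3 wildtype mice, at 0.75 ± 0.20 on the log2 scale (edgeR adjusted p = 0.0673). This separation holds after TMM, with factors of 0.692 to 0.823 in *Pax4* R192H and 0.89 to 1.11 in wildtype libraries on HFD. Without these factors the groups overlap. On SCD the genotypes overlapped, at 157 to 227 and 158 to 215 CPM. *Got1*, the cytosolic aspartate aminotransferase, had a log2 fold change of 0.46 ± 0.21, and *Slc25a11*, the 2-oxoglutarate/malate carrier, of 0.31 ± 0.15. For the aspartate/glutamate carriers, *Slc25a12* had 0.14 ± 0.13 and *Slc25a13* had -0.13 ± 0.20, and *Got2*, the mitochondrial aminotransferase, had 0.07 ± 0.14. None of these passed the edgeR test.

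*Pcx* was at 79.8, 59.8 and 86.0 CPM in HFD-fed wildtype islets and at 47.4, 51.6 and 48.4 CPM in HFD-fed *Pax4* R192H islets. The groups did not overlap, and the log2 fold change was -0.61 ± 0.17 (edgeR adjusted p = 0.0736). Without replicate 2 of HFD-fed wildtype, the lowest of its group, *Pcx* was called lower at -0.75 (edgeR adjusted p = 0.0355), whereas the adjusted p was 0.184 to 0.245 without any one of the other mice. The remaining genes of pyruvate entry and anaplerosis, *Mpc1* and *Mpc2* of the mitochondrial pyruvate carrier and *Glud1*, glutamate dehydrogenase, had log2 fold changes between -0.03 and 0.16.

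In lower glycolysis, *Pgk1* (phosphoglycerate kinase) was at 66.9, 101 and 86.3 CPM in HFD-fed wildtype and 108, 145 and 148 CPM in HFD-fed *Pax4* R192H islets, without overlap. As for *Mdh1*, the groups overlap without the TMM factors. The log2 fold change of *Pgk1* was 0.66 ± 0.18 (edgeR adjusted p = 0.0786). *Gapdh*, the enzyme of the preceding step, was at 88.0, 79.1 and 79.8 CPM in HFD-fed wildtype and 103, 107 and 117 CPM in HFD-fed *Pax4* R192H islets, at 0.40 ± 0.13 on the log2 scale (edgeR adjusted p = 0.134). Both genes have processed pseudogenes elsewhere in the genome, and how RSEM divided shared reads between them could not be examined from gene-level counts. *Pgam1*, *Eno1* and *Pkm* had log2 fold changes of 0.12, 0.31 and -0.03 respectively. *Eno2*, the neuronal enolase, was at 21.4, 20.2 and 22.1 CPM in HFD-fed wildtype and 13.5, 16.4 and 18.4 CPM in HFD-fed *Pax4* R192H islets, without overlap, at -0.40 ± 0.14 (edgeR adjusted p = 0.180).

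Upper glycolysis held the second lowest fold change of the 44 genes, that of *Aldoc*, an aldolase of neural tissue. *Aldoc* measured 5.01, 5.53 and 4.11 CPM in HFD-fed wildtype and 2.79, 2.94 and 1.67 CPM in HFD-fed *Pax4* R192H islets, a difference of -0.99 ± 0.29 on the log2 scale (edgeR adjusted p = 0.0949). All 3 *Pax4* R192H values were below all 3 wildtype values. *Pfkp*, a phosphofructokinase, was at 16.3, 17.8 and 19.2 CPM in wildtype and 12.5, 14.3 and 15.6 CPM in *Pax4* R192H islets, at -0.33 ± 0.13 on the log2 scale (edgeR adjusted p = 0.209), and the remaining 5 genes of the group lay between -0.22 and 0.22.

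The 12 TCA cycle genes had log2 fold changes from -0.35 to 0.36, with a median of 0.06, and none passed the test. The lowest was *Idh2*, the mitochondrial NADP-dependent isocitrate dehydrogenase, at 93.7, 102 and 120 CPM in HFD-fed wildtype and 71.1, 89.5 and 86.5 CPM in HFD-fed *Pax4* R192H islets, without overlap, at -0.35 ± 0.19 (edgeR adjusted p = 0.380). *Idh3g*, a subunit of the NAD-dependent isocitrate dehydrogenase, was at 32.0, 38.7 and 37.7 CPM in HFD-fed wildtype and 42.3, 51.7 and 45.4 CPM in HFD-fed *Pax4* R192H islets, at 0.36 ± 0.14. *Mdh2*, the mitochondrial malate dehydrogenase, was at 33.5, 33.4 and 34.5 CPM against 41.5, 46.4 and 37.6 CPM, at 0.31 ± 0.11. The 5 genes of the pyruvate dehydrogenase complex lay between -0.01 and 0.29 on the log2 scale, and *Pdk1* and *Pdk2* at 0.32 ± 0.15 and 0.19 ± 0.43.

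Across the 44 genes, 28 had a log2 fold change above 0 on HFD and 16 below, with a median of 0.08 against -0.01 over all genes tested. After TMM, the levels of 11 genes were higher and of 7 lower in all 3 *Pax4* R192H mice than in all 3 wildtype mice, where 13.0% and 9.89% of all genes tested were so. At an unadjusted p below 0.05, 13 of the 44 genes passed, where 15.9% of all genes did, and 8 passed without replicate 2 of HFD-fed *Pax4* R192H.

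On SCD no gene was called by edgeR in the whole table (0.0%), the 44 included, and none of the 44 reached an unadjusted p below 0.05, where 3.29% of all genes did. DESeq2 called 19 genes over the table and none of the 44. Of the 44 log2 fold changes, 20 were above 0, with a median of -0.01 and a range from -0.23 (*Mpc1*) to 0.26 (*Pdk2*). The number above 0 rested on single mice, at 36 without replicate 1 and 9 without replicate 2 of SCD-fed wildtype, and at 35 without replicate 3 of SCD-fed *Pax4* R192H. *Gpd2* had 0.15 ± 0.19, *Mdh1* 0.04 ± 0.20, *Pcx* 0.08 ± 0.17, *Pgk1* 0.05 ± 0.18 and *Aldoc* 0.01 ± 0.28. In wildtype and *Pax4* R192H islets, respectively, *Pcx* ranged from 54.4 to 79.3 and from 65.4 to 82.5 CPM, *Pgk1* from 60.7 to 88.8 and from 69.7 to 77.8 CPM, and *Aldoc* from 4.02 to 6.97 and from 4.08 to 7.19 CPM. *Gapdh* ranged from 57.5 to 67.3 and from 58.1 to 78.2 CPM, *Eno2* from 16.6 to 21.0 and from 16.7 to 19.7 CPM, and *Idh3g* from 25.5 to 37.6 and from 30.9 to 33.9 CPM. Each of these 6 genes overlapped between genotypes on SCD, as did *Pfkp* and *Mpc2*, whereas *Mdh2* did not, at 28.3, 24.3 and 28.4 CPM against 30.8, 28.8 and 29.0 CPM. For the interaction of genotype and diet, none of the 44 was called by edgeR, where 0.131% of all genes were, 5 of the 44 reached an unadjusted p below 0.05 (3 to 9 on leaving out each mouse), where 11.2% of all genes did, and DESeq2 called 1, *Gpd2*, where it called 1.81% of all genes.

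**Figure D2:**
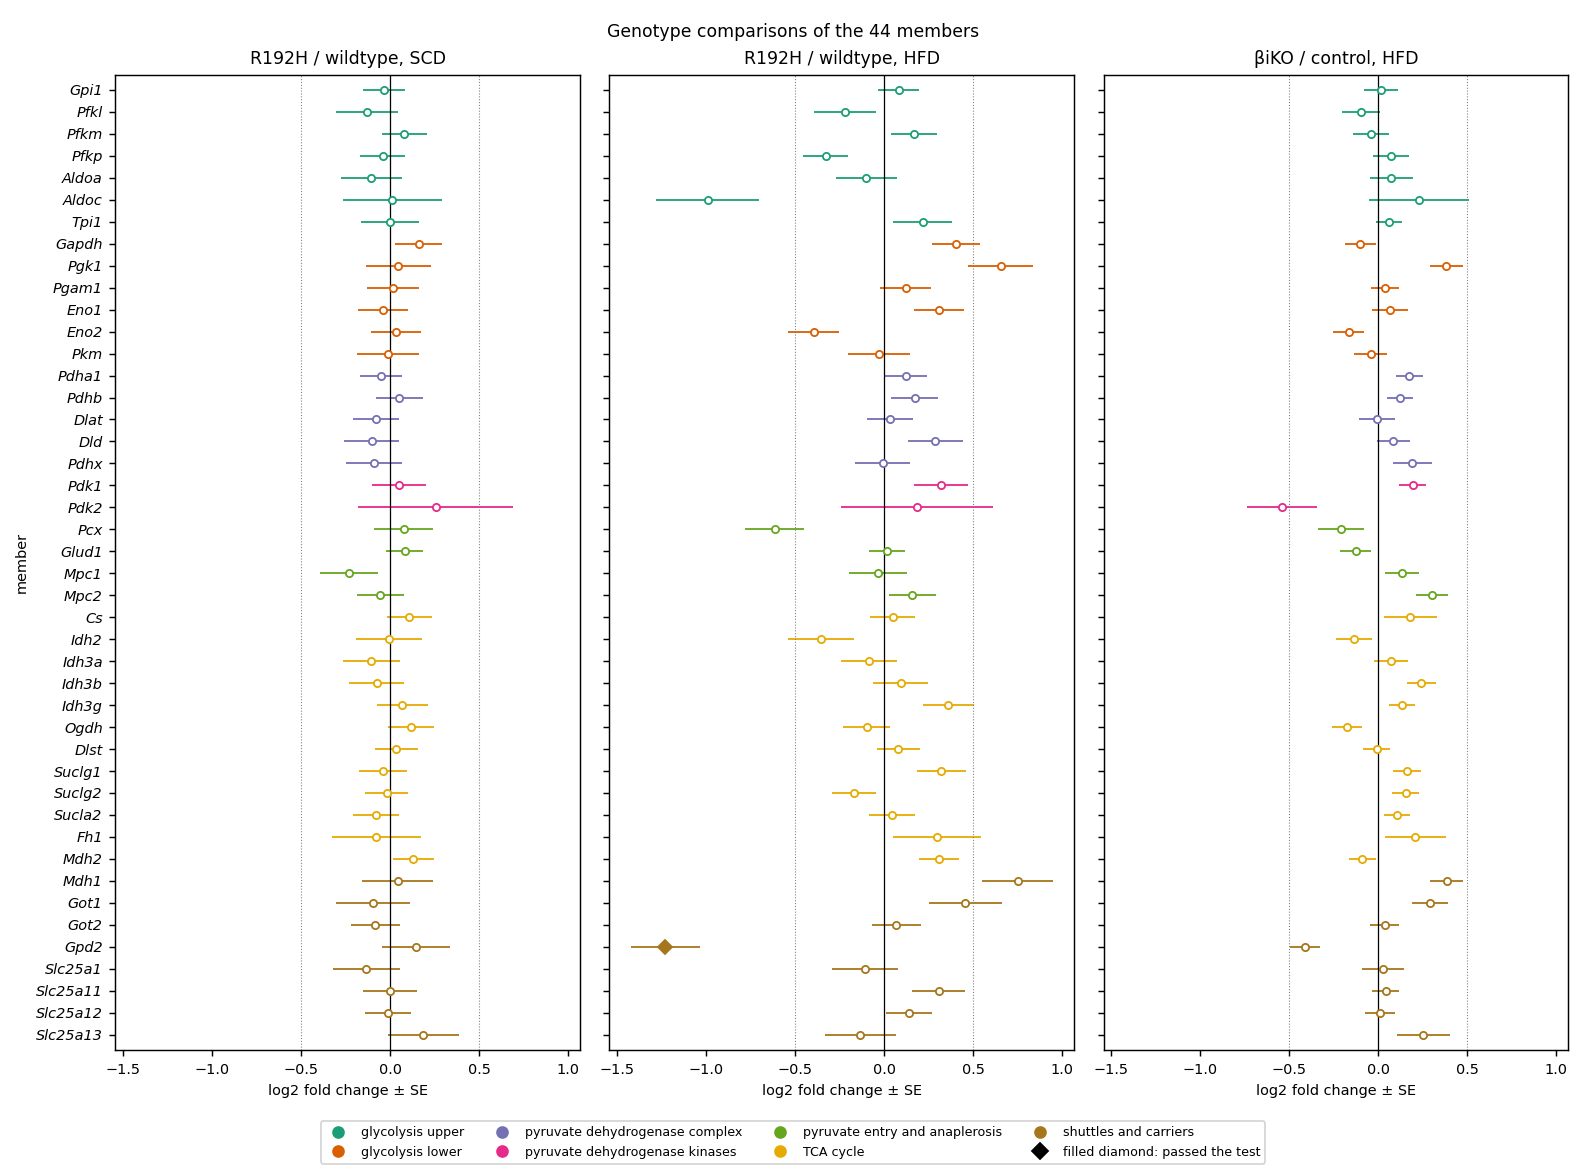
Log2 fold change with SE of each of the 44 genes, coloured by role, for *Pax4* R192H against wildtype on SCD (left) and HFD (middle) and for *Pax4* βiKO against control on HFD (right). Filled diamonds passed the test and dotted lines mark 0.5 in either direction. *Gpd2* on HFD, at -1.23, is the only filled point, and the SCD points lie between -0.23 and 0.26.

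To examine loss of *Pax4* in adult β cells, HFD-fed *Pax4* βiKO islets were compared with HFD-fed control islets. None of the 44 genes was called, where 0.0893% of 20167 genes tested were. At an unadjusted p below 0.05, 9 of the 44 passed in edgeR (5 on leaving out replicate 1 or replicate 2 of the controls), where 12.8% of all genes did, and with DESeq2 none passed both thresholds, where 1.2% of all genes did. The 4 genes of lowest p were *Gpd2*, *Mdh1*, *Pgk1* and *Mpc2*.

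*Gpd2* was at 76.6 and 83.6 CPM in the 2 control mice and at 58.8, 58.5 and 63.8 CPM in the 3 *Pax4* βiKO mice. All *Pax4* βiKO values were below both controls, and the mean was 75.3% of the control mean, at -0.41 ± 0.08 on the log2 scale (edgeR adjusted p = 0.173). *Mdh1* was at 333 and 357 CPM in control and at 471, 451 and 430.5 CPM in *Pax4* βiKO islets, at 0.39 ± 0.09 on the log2 scale (edgeR adjusted p = 0.219). *Pgk1* was at 135 and 144 CPM in control and at 198, 172 and 175 CPM in *Pax4* βiKO islets, at 0.38 ± 0.09 (edgeR adjusted p = 0.223). These 3 genes lay on the same side of their controls as in HFD-fed *Pax4* R192H islets, in a table with mice of its own, at under 0.5 on the log2 scale in each case. With DESeq2 the adjusted p was 0.00301 for *Gpd2*, 0.00194 for *Mdh1* and 0.0117 for *Pgk1*, so that there they missed the call on the size of the fold change alone.

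*Mpc2*, a subunit of the mitochondrial pyruvate carrier, was at 32.5 and 32.0 CPM in control and at 38.0, 39.0 and 42.3 CPM in *Pax4* βiKO islets, at 0.30 ± 0.09 (edgeR adjusted p = 0.275). *Pcx* was at 71.9 and 71.0 CPM against 60.6, 52.5 and 72.2 CPM, so that 1 *Pax4* βiKO mouse exceeded both controls, and its log2 fold change was -0.21 ± 0.13. *Aldoc* was at 7.21 and 7.39 CPM against 6.14, 7.41 and 12.1 CPM, at 0.23 ± 0.28. *Gapdh*, at 214 and 223 CPM against 215, 206 and 190.3 CPM, and *Pfkp*, at 28.5 and 25.0 CPM against 27.1, 28.2 and 29.1 CPM, also overlapped. *Mdh2* was at 63.2 and 63.5 CPM against 58.2, 59.2 and 61.3 CPM and *Eno2* at 30.8 and 29.6 CPM against 26.2, 27.8 and 26.7 CPM, both lower without overlap, and *Idh3g* at 72.2 and 71.9 CPM against 80.4, 76.4 and 80.6 CPM, higher without overlap. Their log2 fold changes were -0.09, -0.17 and 0.13. *Got1* had 0.29 ± 0.10 and *Pdk2* had -0.54 ± 0.20, the lowest of the 44, at a level of 6.66 CPM or less.

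Over the 44 genes, 30 log2 fold changes were above 0 in *Pax4* βiKO islets, with a median of 0.07 against 0.01 over all genes tested. Levels were higher in all *Pax4* βiKO mice than in both controls for 14 genes and lower for 5, where 15.9% and 16.7% of all genes were so. Without replicate 3 of *Pax4* βiKO the median was 0.0016.

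To describe the diet and age difference, HFD-fed mice of 16 weeks were compared with SCD-fed mice of 12 weeks within each genotype. In wildtype islets none of the 44 genes was called, where 0.371% of all genes were, 8 reached an unadjusted p below 0.05, where 15.2% of all genes did, and DESeq2 called none, where it called 3.03% of all genes. Of the 44 log2 fold changes 39 were above 0, with a median of 0.18 against 0.01 over all genes. Without replicate 2 of SCD-fed wildtype 32 were above 0, with a median of 0.11, and 3 reached an unadjusted p below 0.05, a count that was 13 without replicate 1 of the same group and 5 without replicate 3 of HFD-fed wildtype. The genes of lowest p in wildtype were *Ogdh*, the 2-oxoglutarate dehydrogenase, at 0.42 ± 0.13, and *Pgam1*, phosphoglycerate mutase, at 0.46 ± 0.15.

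In *Pax4* R192H islets 9 of the 44 genes were called higher on HFD, where 9.75% of all genes were, and 3 were called lower, where 5.91% were. The 3 that fell were *Gpd2*, *Aldoc* and *Pcx*, with log2 fold changes of -1.26 ± 0.19, -1.13 ± 0.29 and -0.59 ± 0.17 (edgeR adjusted p = 0.0011, 0.0182 and 0.0279). In lower glycolysis 3 of 6 genes rose, namely *Pgk1* at 0.86 ± 0.18, *Gapdh* at 0.61 ± 0.13 and *Pgam1* at 0.56 ± 0.15. Of the 8 shuttle and carrier genes 3 rose, all of the malate-aspartate shuttle, namely *Mdh1* at 0.90 ± 0.20, *Got1* at 0.87 ± 0.21 and *Slc25a11* at 0.64 ± 0.15. In the TCA cycle 3 of 12 rose, namely *Idh3g*, *Mdh2* and *Suclg1*, a subunit of succinate-CoA ligase, each at 0.50, just over the fold threshold. With RLE size factors none of these 3 was called, and the other 9 of the 12 genes were. All 9 rises are in levels after TMM, with factors of 0.692 to 0.823 in HFD-fed and at least 1.08 in SCD-fed *Pax4* R192H libraries. Before TMM the 44 genes together held 0.183 to 0.254% of counts in HFD-fed and 0.238 to 0.323% in SCD-fed *Pax4* R192H libraries. Whether the rises would be called without scaling factors was not tested. On leaving out each of the 6 mice in turn, *Gpd2*, *Mdh1*, *Pgk1* and *Gapdh* were called in all 6 fits, *Slc25a11* in 5, *Aldoc*, *Got1* and *Mdh2* in 4, *Pgam1* in 3, *Suclg1* in 2 and *Pcx* and *Idh3g* in 1. The edgeR adjusted p of *Pcx* ranged from 0.0334 to 0.128 over these fits. With all mice, no gene of the pyruvate dehydrogenase complex or its kinases was called, and *Dlat*, its acetyltransferase subunit, was called without replicate 2 of SCD-fed *Pax4* R192H.

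The values per mouse show the size of these differences. *Got1* was at 13.5, 12.1 and 9.31 CPM in SCD-fed and at 17.9, 20.4 and 25.6 CPM in HFD-fed *Pax4* R192H islets, without overlap after TMM. *Slc25a11* was at 32.4, 30.9 and 25.5 CPM against 46.2, 44.7 and 47.7 CPM, and *Pgam1* at 68.7, 60.2 and 44.9 CPM against 80.4, 83.2 and 92.5 CPM. In wildtype islets *Pgam1* was at 51.8 to 60.5 CPM on SCD and 73.8 to 81.2 CPM on HFD, a log2 fold change of 0.46 that did not pass. A gene called in one genotype and not in the other is not shown to differ between them, and for the interaction edgeR called none of the 12 and DESeq2 1, *Gpd2*. With the acinar covariate none of the 12 was called, with a median of 0.38 for the 44 genes against 0.26 without it. Under the covariate the log2 fold changes were 1.12 for *Mdh1*, 1.13 for *Pgk1*, 0.62 for *Gapdh*, 0.60 for *Idh3g*, 0.48 for *Mdh2*, -1.09 for *Gpd2*, -1.27 for *Aldoc* and -0.48 for *Pcx*. Acinar sums were 15708 to 22331 CPM in SCD-fed and 44045 to 116116 CPM in HFD-fed *Pax4* R192H islets. Of the other marker lists, all 8 cell cycle genes were called higher, with a median of 2.33 and sums of 48.7 to 67.0 CPM on SCD and 171 to 204 CPM on HFD. Of the 12 β cell markers 6 were above 0 and 6 below, with a median of -0.065. *Ins1*, *Ins2* and *Iapp* were called higher and *Trpm5*, *Slc30a8*, *Glp1r* and *Slc2a2* lower. Of the 8 α cell markers 3 were above 0 and 5 below, with *Gc* and *Ttr* called higher and *Slc7a2* lower. *Krt7* of the duct list, *Plvap* of the endothelial list and *Ms4a1* of the lymphocyte list were also called higher. Of 8 stromal markers 7 had a log2 fold change below 0, with a median of -1.26 and sums of 66.9 to 138 against 41.0 to 63.4 CPM. edgeR called none of these 8, whereas DESeq2 called *Col1a1* and *Dcn*. The part of these markers in the diet result beyond these values was not tested. The count of called genes was 10 without replicate 1 of HFD-fed *Pax4* R192H, 7 without replicate 2, 7 without replicate 3 and 6 without replicate 3 of SCD-fed *Pax4* R192H.

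**Figure D3:**
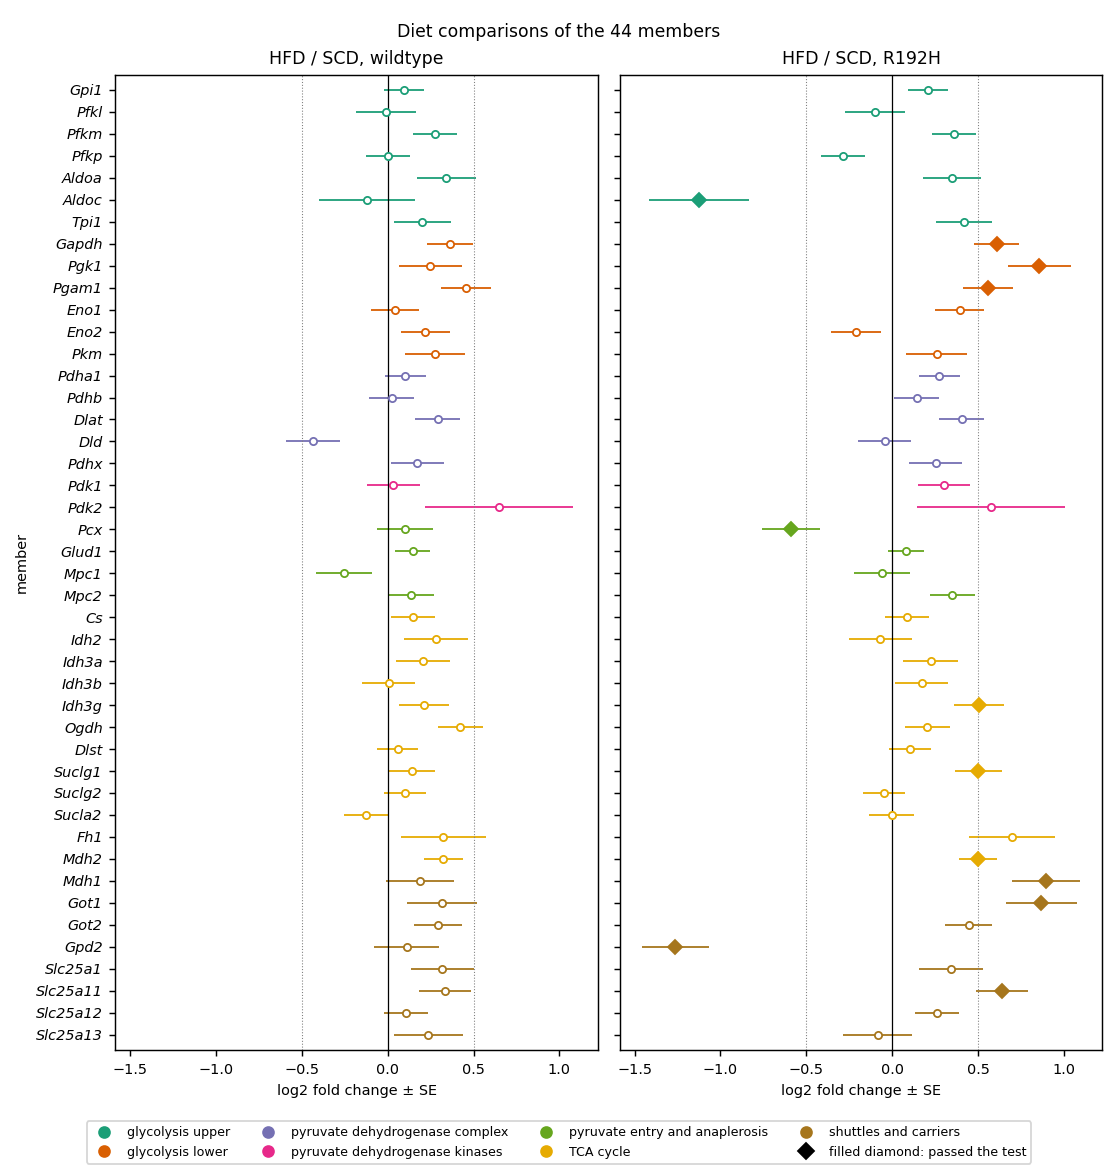
Log2 fold change with SE of each of the 44 genes, coloured by role, for HFD against SCD in wildtype (left) and *Pax4* R192H (right) islets. Filled diamonds passed the test. No point is filled in wildtype, and 12 are in *Pax4* R192H, with *Gpd2* lowest at -1.26 and *Mdh1* highest at 0.90.

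Isozymes of 1 step were compared as shares of their family in CPM per kilobase of exon. Among the phosphofructokinases, which catalyse the committed step of glycolysis, *Pfkm* (the muscle form) made up 58.1 to 59.1% in HFD-fed wildtype and 63.9 to 66.1% in HFD-fed *Pax4* R192H islets. *Pfkl*, the liver form, made up 32.3 to 32.6% and 27.3 to 28.1%, and *Pfkp* 8.34 to 9.26% and 6.58 to 7.93%. The differences in the mean were 6.68, -4.82 and -1.86 percentage points, without overlap between groups. Among the enolases *Eno1* made up 65.7 to 71.5% in wildtype and 76.0 to 79.5% in *Pax4* R192H islets, a difference of 9.60 points. *Aldoc* was 1.34 to 2.05% of the 2 aldolases in wildtype and 0.589 to 1.27% in *Pax4* R192H islets, with *Aldoa* making up the rest. Each of these 5 differences gave p = 0.1 in a two-sided exact permutation test, the smallest possible with 3 mice against 3 (adjusted p = 0.24 over 12 tests), so none could pass 0.05. The share of *Pdk1* in the *Pdk1* and *Pdk2* pair was 72.2 to 88.5% and 79.8 to 81.6%, which overlapped (exact permutation p = 0.8).

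In *Pax4* βiKO islets *Pfkm* made up 63.5 to 64.8% against 62.7 and 65.1% in control, with a difference of 0.29 points (exact permutation p = 0.8). *Eno1* made up 75.5 to 79.3% against 73.7 and 74.8%, and *Pdk1* 84.7 to 87.7% against 77.3 and 80.0%, neither with overlap (exact permutation p = 0.2 each, the smallest possible with 3 mice against 2). *Pfkp* made up 8.95 to 9.58% against 8.53 and 8.66%, also higher without overlap (exact permutation p = 0.2), whereas its share was lower in HFD-fed *Pax4* R192H islets. The shares of *Pfkl* and *Aldoa* overlapped.

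**Figure D4:**
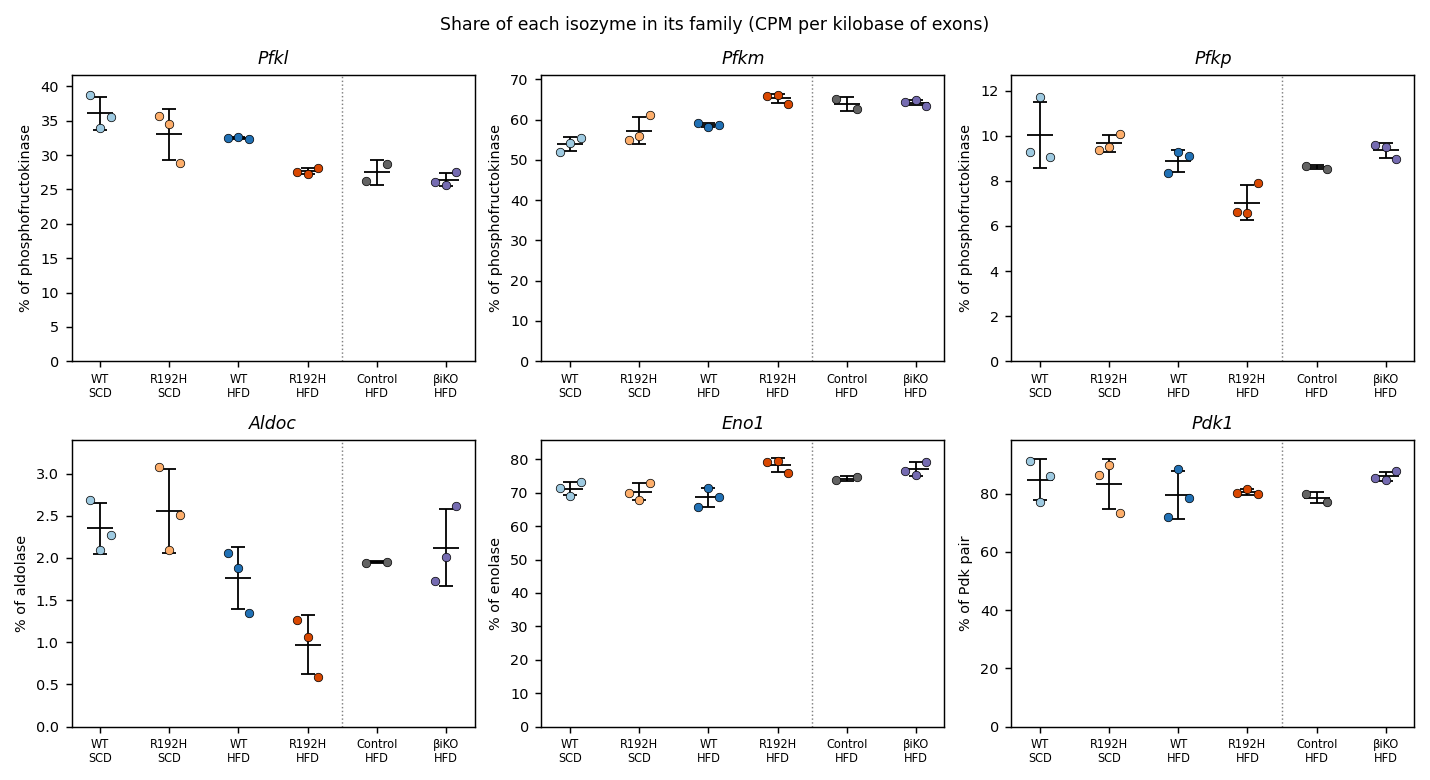
Share of an isozyme in its family (percent of summed CPM per kilobase of exon) in each mouse (points), with the group mean and SD (bars). In HFD-fed *Pax4* R192H mice *Pfkm* lies at 63.9 to 66.1% and *Eno1* at 76.0 to 79.5%, above all 3 HFD-fed wildtype mice.

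Of 70 further genes of the same pathways, 62 were tested in the first table. Between genotypes on HFD 1 was called higher and 3 lower, where 1.46% and 0.82% of all genes were. *Slc2a2*, the GLUT2 glucose transporter through which mouse β cells take up glucose, was at 701, 489 and 688 CPM in wildtype and at 212, 243 and 319 CPM in *Pax4* R192H islets, at -1.28 ± 0.19 (edgeR adjusted p = 0.00588). *Glul*, glutamine synthetase, was called lower at -0.81 ± 0.17 and *Rpia*, ribose 5-phosphate isomerase, at -1.07 ± 0.21. *Me3*, a mitochondrial malic enzyme, was called higher at 1.71 ± 0.34, at levels of 1.28 to 2.46 CPM in wildtype and 5.25 to 6.29 CPM in *Pax4* R192H islets. On leaving out each of the 6 mice in turn, *Slc2a2* was called in all 6 fits, *Rpia* in 2, *Glul* in 1 and *Me3* in 1. DESeq2 called these 4 as well as *Gls2* higher and *Pdp2* lower, which makes 2 of the 62 higher and 4 lower, where it called 3.5% and 1.75% of all genes.

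edgeR called none of the 62 on SCD, for the interaction or in *Pax4* βiKO islets, where 3, 8 and 13 reached an unadjusted p below 0.05 and DESeq2 called 0, 3 and 2. Over all genes the unadjusted shares were 3.29%, 11.2% and 12.8%, and DESeq2 called 0.0993%, 1.81% and 1.2%. In *Pax4* βiKO islets *Slc2a2* was at 1244 and 1182 CPM in control and at 651, 784 and 714 CPM in *Pax4* βiKO islets, at -0.76 ± 0.11 (edgeR adjusted p = 0.0923), and was called by DESeq2, as was *Me3*. Between diets 10 of the 62 were called in *Pax4* R192H islets, 7 higher and 3 lower, where 9.75% and 5.91% of all genes were. Those that fell included *Slc2a2* at -1.34 and *Rpia* at -0.90. The 7 that rose were *Gls2* at 1.89, *Me3* at 1.39, *Bpgm* (bisphosphoglycerate mutase) at 1.01, the pentose phosphate genes *Pgls* and *Taldo1* at 0.88 and 0.54, the malic enzyme *Me2* at 0.60 and the glucose-6-phosphatase *G6pc3* at 0.58. On leaving out each of the 6 mice, *Rpia* was called in 3 fits, *Taldo1* in 2 and *G6pc3* in 0, and the other genes named here in all 6. In wildtype islets 1 was called, *Slc16a1*, a monocarboxylate transporter held at a very low level in β cells, at 1.57 to 3.37 CPM on SCD and 0.136 to 0.417 CPM on HFD, and in 4 of 6 fits that left out a mouse. All 8 stromal markers also had a log2 fold change below 0, with a median of -2.14 and sums of 51.9 to 281 CPM on SCD and 33.0 to 48.5 CPM on HFD. edgeR called none of these stromal markers, whereas DESeq2 called *Col1a1*, *Col3a1*, *Dcn* and *Pdgfra*. Of 8 macrophage markers 7 were below 0, with *Lyz2* called by edgeR at -2.23 and sums of 89.4 to 132 against 65.3 to 72.8 CPM. All 5 lymphocyte markers tested were below 0, none of them called by edgeR. DESeq2 called *Lyz2*, *Csf1r* and *Mrc1* of the macrophage list and *Ms4a1* of the lymphocyte list. The part of these markers in the *Slc16a1* result was not tested.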

How the data were processed

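Bulk RNA-seq of 17 islet samples in 6 groups was analysed. Both deposited tables hold RSEM expected counts by gene, with no scaling for depth. Stranded libraries of total RNA were aligned by the authors to mm10 using STAR version 2.7.1, quantified using RSEM version 1.3.3 and summed to genes using tximport. Their annotation release and strand setting are not given in the sources used here. Each sample is called a mouse here, but nothing states whether a sample pooled several, so p-values measure the spread between these samples only.

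Expected counts were rounded. Symbols and exon lengths came from GENCODE on GRCm38. Each table was fitted over all its genes with edgeR (version 4.0.16), using TMM, filterByExpr (minimum count 10), 1 coefficient per group and the quasi-likelihood F-test. The SE of an edgeR log2 fold change was taken as its size divided by the square root of the F statistic. Thresholds were an adjusted p of 0.05 over all genes and a log2 fold change of 0.5 in either direction. On simulated counts 85.5% of 200 changed genes were recovered for the genotype comparison on HFD over 19137 genes, with 6 of 177 calls false. The planted log2 changes were 1 or 2 in size, larger than most differences described above, and spared genes of low level. The share recovered therefore does not apply to smaller changes. In the same simulation 23 of 204 DESeq2 calls were false, and for *Pax4* βiKO over 20167 genes 29 of 211 edgeR and 45 of 235 DESeq2 calls were. Isozyme shares were tested by exact permutation. Alternatives were RLE size factors, other filters, DESeq2 (version 1.42.0), the replicate number as a block, an acinar covariate, omission of the 2 largest genes, a model of only the groups compared, other exon lengths and omission of each mouse. The acinar covariate was the mean log2 CPM of the acinar markers, each marker weighing equally, and not their summed CPM.

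Genes given by mouse were those called between genotypes, filled to 10 by lowest p between genotypes on HFD, then the 4 of lowest p in *Pax4* βiKO and the 4 of lowest p between diets. *Got1*, *Slc25a11*, *Pgam1* and *Idh2* were added by mouse after their values were seen. Other genes are described by role. The members and lists were chosen with earlier results of these data known. Some genes of the lists are not reported here by name.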

Additional observations from a re-analysis of the deposited data

How the results depend on the processing

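Nothing states whether replicate numbers pair the mice, which were treated as unpaired. Deviations of same-numbered samples correlated at -0.296 to 0.193. These were not compared with other pairs of samples and cannot exclude a shared litter or batch. With the replicate block 1 of the 44 genes was called between genotypes on HFD (*Gpd2*, log2 fold change -1.24) and 10 between diets in *Pax4* R192H islets. Groups of 2 or 3 mice limit every comparison, and the *Pax4* βiKO comparison rests on 2 controls.

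Between genotypes on HFD 1 gene was called with RLE size factors, without the 2 largest genes and in a model of only the groups compared, 5 with no filter, 4 with 10 counts in every sample, 5 with DESeq2 and 0 with the acinar covariate. For the interaction 1 was called with no filter, 1 with 10 counts in every sample and 1 with DESeq2, *Gpd2* each time. Between diets in *Pax4* R192H islets 0 were called with the acinar covariate, and counts were 9 to 13 under the alternatives that kept all mice and had no covariate. Acinar sums of HFD-fed *Pax4* R192H mice lay above those of all other mice of the first table, so the covariate changed with the group. With it the SE of *Gpd2* between diets was 0.33, against 0.19 with RLE size factors and no covariate. The loss of calls therefore does not show that the differences went away. With the acinar covariate the median log2 fold change of the 44 genes was 0.19 between genotypes on HFD, 0.23 for the interaction and 0.38 between diets in *Pax4* R192H islets. For *Pax4* βiKO the median was 0.00026 with the replicate block. Over all genes, edgeR's 437 calls between genotypes on HFD became 1279 with no filter, 1004 with DESeq2, 147 with the replicate block and 0 with the acinar covariate, and the 18 for *Pax4* βiKO became 697, 243 and 88 under the first 3. In the same order the 71 between diets in wildtype became 924, 580 and 22 (1 in a model of only the groups compared, 115 with 10 counts in every sample, 40 with the covariate), the 25 for the interaction 708, 346 and 0 (80 with 10 counts in every sample, 0 with the covariate) and the 0 on SCD 261, 19 and 0. The 2996 between diets in *Pax4* R192H islets became 103 with the covariate. The cause of these shifts was not tested.

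Over all genes, leaving out each mouse gave 93 to 498 calls between genotypes on HFD (fewest without replicate 3 and most without replicate 2 of HFD-fed wildtype), 0 to 101 for the interaction, 5 to 125 between diets in wildtype, 1706 to 2248 between diets in *Pax4* R192H islets, 2 to 28 for *Pax4* βiKO and 0 on SCD. Among the 44, it gave 1 to 2 called genes between genotypes on HFD (2 without replicate 2 of HFD-fed wildtype), 6 to 11 between diets in *Pax4* R192H islets, and a *Pax4* βiKO median of 0.0016 to 0.073. Some values near 0 changed sign. On SCD, leaving out each mouse gave log2 fold changes of -0.065 to 0.24 for *Mdh1*, -0.078 to 0.20 for *Pcx*, -0.058 to 0.24 for *Pgk1*, -0.25 to 0.26 for *Aldoc*, -0.031 to 0.15 for *Eno2*, -0.065 to 0.020 for *Pfkp*, -0.058 to 0.23 for *Idh3g* and -0.094 to 0.0084 for *Mpc2*, and *Aldoc* was -0.012 with the replicate block. Between diets in wildtype islets the ranges were -0.019 to 0.27 for *Gpd2*, -0.053 to 0.24 for *Pcx*, -0.29 to 0.12 for *Aldoc* and -0.056 to 0.061 for *Pfkp*. There *Pfkp* was -0.0031 with RLE size factors, -0.031 with 10 counts in every sample, -0.0026 with DESeq2, -0.00086 with the replicate block and -0.0048 in a model of only the groups compared. In *Pax4* R192H islets the diet value of *Eno2* was 0.17 with the acinar covariate. In *Pax4* βiKO islets *Aldoc* was -0.11 with the replicate block and -0.11 to 0.42 on leaving out each mouse, and *Pfkp* was -0.019 to 0.17.

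For the isozyme shares in *Pax4* βiKO, leaving out each mouse gave differences of -2.29 to 0.198 points for *Pfkl*, -0.886 to 1.47 for *Pfkm* and -0.365 to 0.0816 for *Aldoa*, and *Pfkm* was -0.147 without division by length. The difference of *Pdk1* between genotypes on HFD was -2.88 to 5.27. The 5 shares without overlap between genotypes on HFD kept their direction in every alternative.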

Other observations

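Hypoxia-responsive genes outside glycolysis, a list of 18 that share regulation with several glycolytic genes, gave 15 tested genes in the first table. edgeR and DESeq2 called none between genotypes on HFD, on SCD or for the interaction, where 3, 0 and 3 reached an unadjusted edgeR p below 0.05, against 15.9%, 3.29% and 11.2% of all genes. In HFD-fed mice the median log2 fold change was 0.00086, with 8 of 15 above 0. Their summed level was 512 to 535 CPM in HFD-fed wildtype and 466 to 522 CPM in HFD-fed *Pax4* R192H islets. Between diets in *Pax4* R192H islets 3 were called higher, the prolyl 4-hydroxylase subunits *P4ha1* and *P4ha2* and the cytokine *Mif*, and 1 lower, the histone demethylase *Kdm3a*, where 9.75% and 5.91% of all genes were. In *Pax4* βiKO islets neither tool called any of 16 tested, and 4 reached an unadjusted edgeR p below 0.05, where 12.8% of all genes did.

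Lactate dehydrogenase A (*Ldha*), which β cells normally hold low, was at 4.71 to 5.56 CPM in HFD-fed wildtype and at 4.94 to 11.2 CPM in HFD-fed *Pax4* R192H islets, which is 0.56 ± 0.36 higher on the log2 scale and did not pass the test (edgeR adjusted p = 0.489).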
